A study of Mus musculus with 15 samples.

Results

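The genes examined here are 10 members of the AP-1 and immediate-early group (Jun, Junb, Jund, Fos, Fosb, Egr1, Klf6, Nr4a1, Ier2 and Dusp1) in hematopoietic stem cells (HSCs) of mouse bone marrow. They were chosen by name, and all 10 had a row among the 20696 genes of the expression table. The series held 15 bulk RNA libraries in 3 groups of 5: young control (3 months old), aged control (18 months old) and aged Thbs1 knockout (18 months old). Cells of all 3 groups were sorted by flow cytometry from bone marrow straight into the lysis reagent TRIzol-LS, and 2 ng of total RNA entered the SMART-Seq v4 kit, a full-length cDNA method for little RNA. The sources used here give neither the strain, nor the surface markers of the sort, nor the way Thbs1 was deleted, nor any statement that the libraries of a group came from separate mice, so p-values measure the spread between libraries, which may in part be technical.

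AP-1 is a dimer of a Jun protein (Jun, Junb, Jund) with another Jun or with a Fos protein (Fos, Fosb, and others), and binds short DNA elements in promoters and enhancers. Its genes belong to the immediate-early genes, whose transcription starts within minutes of a growth signal or a stress without new protein synthesis, driven by MAP kinases through serum response factor and CREB, and whose messages decay as fast. Dusp1 encodes a phosphatase that removes the activating phosphates from the MAP kinases and so closes the loop. Because enzymatic or mechanical dissociation, warming and cell sorting also switch these genes on, their level in sorted cells is known to reflect both the state of the cells in the animal and the handling of the sample.

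The cAMP response element bound by CREB is a known input of several of these genes, so the 250 bases before the transcription start, from RefSeq on GRCm38.p6, are printed 5′ to 3′ for 4 members whose values are described below. Capitals mark each TGACG, the core of that element, on either strand (CGTCA on the other). The windows lie at chr17:26508473-26508722 (minus strand) for Dusp1, chr12:85473640-85473889 (plus strand) for Fos, chr7:19310046-19310295 (minus strand) for Fosb and chr8:84978749-84978998 (minus strand) for Junb.
Dusp1: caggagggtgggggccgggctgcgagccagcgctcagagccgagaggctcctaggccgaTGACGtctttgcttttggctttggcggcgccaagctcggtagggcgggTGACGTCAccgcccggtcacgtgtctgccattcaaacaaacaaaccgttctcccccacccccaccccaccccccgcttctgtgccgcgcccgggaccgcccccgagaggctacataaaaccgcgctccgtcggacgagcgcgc
Fos: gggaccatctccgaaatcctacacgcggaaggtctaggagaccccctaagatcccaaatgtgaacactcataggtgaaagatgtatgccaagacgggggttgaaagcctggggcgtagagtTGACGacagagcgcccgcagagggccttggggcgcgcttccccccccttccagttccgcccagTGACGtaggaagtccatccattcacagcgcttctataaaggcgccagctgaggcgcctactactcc
Fosb: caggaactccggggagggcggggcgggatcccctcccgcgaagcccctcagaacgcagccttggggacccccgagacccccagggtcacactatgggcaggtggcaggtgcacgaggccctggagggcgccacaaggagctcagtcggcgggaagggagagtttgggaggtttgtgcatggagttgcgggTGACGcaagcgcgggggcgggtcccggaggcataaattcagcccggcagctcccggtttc
Junb: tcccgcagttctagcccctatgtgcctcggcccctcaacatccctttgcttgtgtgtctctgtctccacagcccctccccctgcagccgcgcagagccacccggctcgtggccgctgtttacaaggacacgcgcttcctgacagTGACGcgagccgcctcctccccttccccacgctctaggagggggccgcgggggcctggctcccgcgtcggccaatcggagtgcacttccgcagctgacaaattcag
Dusp1 held 3 matches of TGACG, of which 2 formed the full palindrome TGACGTCA, a sequence found in 1.55% of 32851 promoter windows of the same length. Fos held 2 matches, and Fosb and Junb held 1 each. Nr4a1 held 4, whereas Jun, Jund and Klf6 held none, so 5 of the 8 member windows examined had TGACG, against 17.8% of all windows. The RefSeq start is not always the gene start given below. For Jund the window (chr8:70697489-70697738) ended well before that start, at 70698949, so it does not describe the bases next to it. For Dusp1 and Nr4a1 the window lay inside the longer gene model given below. Jun and Klf6 each held TGACATCA instead (2.93% of windows), the letters of the AP-1 element through which Jun is known to act on its own gene. No member window held TGANTCA (6.75% of windows) on either strand, and a match or its absence describes only the letters of these windows. Ier2 had no usable entry, and the promoter of Egr1 is not shown.

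The labels were checked first. Thbs1, which encodes the secreted matrix protein thrombospondin 1, had no lower level under the knockout label: its mean was 4.24 ± 5.28 FPKM when young, 2.90 ± 3.84 in the aged control group and 10.4 ± 7.84 in the labelled group (SD, n = 5 each). Among libraries named male it lay at 0.76 and 0.70 (young), 0.20, 0.01 and 0.62 (aged) and 2.53 and 1.69 (labelled knockout). Libraries named female held 13.38, 2.42 and 3.95 (young), 8.75 and 4.9 (aged) and 17.89, 12.69 and 17.25 (labelled knockout). These libraries are therefore called "labelled aged Thbs1 knockout" throughout. The table names each column by a sample title and by a library name that holds the sex. Titles were used here, and GEO's sample descriptions pair 10 of the 15 library names with another title. Library names also hold a letter. By title it was A in every young, B in every aged and C in every labelled knockout library. By description, every group mixed letters. The letter was not used to form groups. Groups formed by GEO's descriptions gave 0 called genes for age, 0 for the labelled knockout against aged controls and 15 against young controls. Each member's call between groups is also given under them. Of the called list and marker genes named at the end, none was called between groups under them, and 17 of those 19 changes then lay on the other side of 0. By description, every young library was named male and every labelled knockout library female, so that comparison cannot be told apart from sex. The aged group held both sexes. Thbs1 was no lower with the knockout label by description either. It lay at 0.01 to 0.76 FPKM when young, 1.69 to 13.38 when aged and 4.9 to 17.89 when labelled knockout. Xist lay at 2.5 to 5.81 FPKM in the 8 libraries named female and at 0 to 0.02 in the 7 named male, so the sex in the library names held in all 15. The stem cell markers Kit, Ly6a, Procr, Slamf1, Cd34, Mecom, Hlf and Ptprc were detected in every group. Of the 9 stem cell markers listed, 1 averaged under 1 FPKM in the aged control group and 1 in the labelled knockout group. Reads recovered from the FPKM steps came to 16646774 to 28622515 in genes per library, with rRNA-like genes at 2.21% and 0.71% in labelled aged Thbs1 knockout 2 and 5 and at most 0.408% elsewhere.

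All 10 members averaged at least 1 FPKM, the filter for testing, and Jun led their order. FPKM (fragments per kilobase of transcript, scaled to library size) accounts for gene length, so levels can be set side by side. Averaged over the 15 libraries, the level was 281 FPKM for Jun, 140.9 for Ier2, 126.5 for Dusp1, 74.7 for Fos and 55.5 for Junb. The lower members were Egr1 at 21.3, Jund at 16.4, Klf6 at 12.6, Nr4a1 at 8.10 and Fosb at 5.92. Jun lay above Ier2 in 15 of 15 libraries and Junb above Egr1 in 15 of 15. Ier2 exceeded Dusp1 in only 9 and Fos exceeded Junb in only 8, so neighbours of those 2 pairs were not ordered beyond their spread. Jund exceeded Klf6 in 11 and Nr4a1 exceeded Fosb in 11, so their order did not hold in every library either. The reads recovered behind a single value ran from 288 (Nr4a1) to 32082 (Jun). In bulk RNA, fewer expressing cells and less RNA per cell cannot be told apart.

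Jun, on chromosome 4 at 95049034 to 95052222 (minus strand, ENSMUSG00000052684; gene positions are GRCm38 with GENCODE M21), encodes the founding AP-1 subunit and was the most abundant member. Replicates 1 to 5 held 405, 408, 333, 238 and 348 FPKM of Jun when young, 345, 286, 217, 241 and 161 when aged, and 291, 231, 224, 299.7 and 187 with the knockout label. The young libraries mostly lay above the others, with 2 aged and 3 labelled knockout libraries below the lowest young value, and the groups overlapped.

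Junb (chromosome 8, 84974484 to 84978718, minus strand, ENSMUSG00000052837) encodes a Jun protein known to restrain proliferation of blood stem cells. The Junb values were 90.4, 62.4, 34.9, 37.4 and 38.97 FPKM across the young replicates, 96.3, 84.2, 61.5, 62.9 and 39.7 across the aged ones and 48.5, 44.1, 36.6, 42.95 and 51.4 across those labelled knockout. Its spread was widest in the controls, where the male libraries were high, and the 5 labelled knockout libraries sat close together. Jund (chromosome 8, 70698949 to 70700616, plus strand, ENSMUSG00000071076), the subunit most often described as constitutive, was highest in the 3 male aged libraries. Jund measured 15.3, 19.03, 10.2, 11 and 11.5 FPKM in the young group (replicates 1 to 5), 25.9, 28.4, 24.7, 15.1 and 10.3 in the aged control group and 15.04, 19.3, 11.3, 8.89 and 20.2 in the knockout-labelled group. Jun, Junb and Jund each overlap a gene on the other strand in the annotation (Junos, Prdx2 and Gm11175), and whether counting used strand is not given in the sources used here.

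Fos (chromosome 12, 85473890 to 85477273, plus strand, ENSMUSG00000021250) encodes a protein whose dimers with Jun bind DNA more stably than Jun dimers. Replicates 1 to 5 held 229.5, 113, 78.9, 66.4 and 82.2 FPKM of Fos when young, 93.6, 65.1, 35.03, 54.2 and 22.8 when aged, and 31.04, 44.1, 39.7, 66.9 and 97.01 with the knockout label. Its highest library held 10.1 times its lowest, the widest ratio of the 10 members, and young control 1 stood far above the rest. Fosb (chromosome 7, 19302696 to 19310051, minus strand, ENSMUSG00000003545), another Fos protein, had the lowest mean of the members. The Fosb values were 6.77, 7.04, 4.03, 3.81 and 5.13 FPKM across the young replicates, 8.12, 7.56, 8.09, 4.14 and 2.71 across the aged ones and 6.31, 7.46, 4, 5.11 and 8.54 across those labelled knockout. Its groups overlapped.

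The remaining transcriptional regulators were Egr1, Klf6, Nr4a1 and Ier2. Egr1 (chromosome 18, 34859823 to 34864984, plus strand, ENSMUSG00000038418) encodes a zinc finger factor that is known to hold HSCs in quiescence and in their niche. Egr1 measured 49.3, 20.7, 11.8, 13.7 and 13.8 FPKM in the young group (replicates 1 to 5), 28.9, 30.4, 26.9, 14.98 and 11.5 in the aged control group and 21.5, 24.1, 14.3, 22.6 and 15.8 in the knockout-labelled group. Young control 1 again stood highest, and 7 of 8 female libraries lay below the lowest male one. Klf6 (chromosome 13, 5861482 to 5870394, plus strand, ENSMUSG00000000078), a Krüppel-like zinc finger factor, showed little spread outside young control 1. Replicates 1 to 5 held 28.02, 13.5, 14.02, 9.77 and 13.6 FPKM of Klf6 when young, 10.9, 8.76, 10.6, 13.8 and 10.04 when aged, and 10.3, 9.48, 10.1, 12.97 and 12.7 with the knockout label. The same library was highest for Fos, Egr1 and Klf6.

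Nr4a1 (chromosome 15, 101254269 to 101274795, plus strand, ENSMUSG00000023034) encodes the orphan nuclear receptor Nur77. The Nr4a1 values were 13.6, 9.03, 6.30, 7.32 and 7.79 FPKM across the young replicates, 6.79, 6.74, 4.76, 5.37 and 8.40 across the aged ones and 14.2, 8.01, 8.49, 9.41 and 5.35 across those labelled knockout. Its 2 highest values came from young control 1 and labelled aged Thbs1 knockout 1, both male. Ier2 (chromosome 8, 84661331 to 84662852, minus strand, ENSMUSG00000053560) encodes a small nuclear protein of the immediate-early response. Ier2 measured 202, 200.1, 135, 123 and 137 FPKM in the young group (replicates 1 to 5), 181, 173, 147, 102 and 83.03 in the aged control group and 142, 145, 111, 117 and 115 in the knockout-labelled group. In each group every male library was above every female library.

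Dusp1 (chromosome 17, 26505590 to 26562128, minus strand, ENSMUSG00000024190) encodes the MAP kinase phosphatase described above; its long annotated model overlaps Ergic1 on the other strand. Replicates 1 to 5 held 222, 217, 141, 134 and 152 FPKM of Dusp1 when young, 140.3, 127, 94.1, 90.6 and 55.3 when aged, and 116, 99.7, 112, 113 and 84.3 with the knockout label. Of the aged libraries 4 of 5 and of the labelled knockout libraries 5 of 5 lay below the lowest young value of 134 FPKM.

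**Figure D1:**
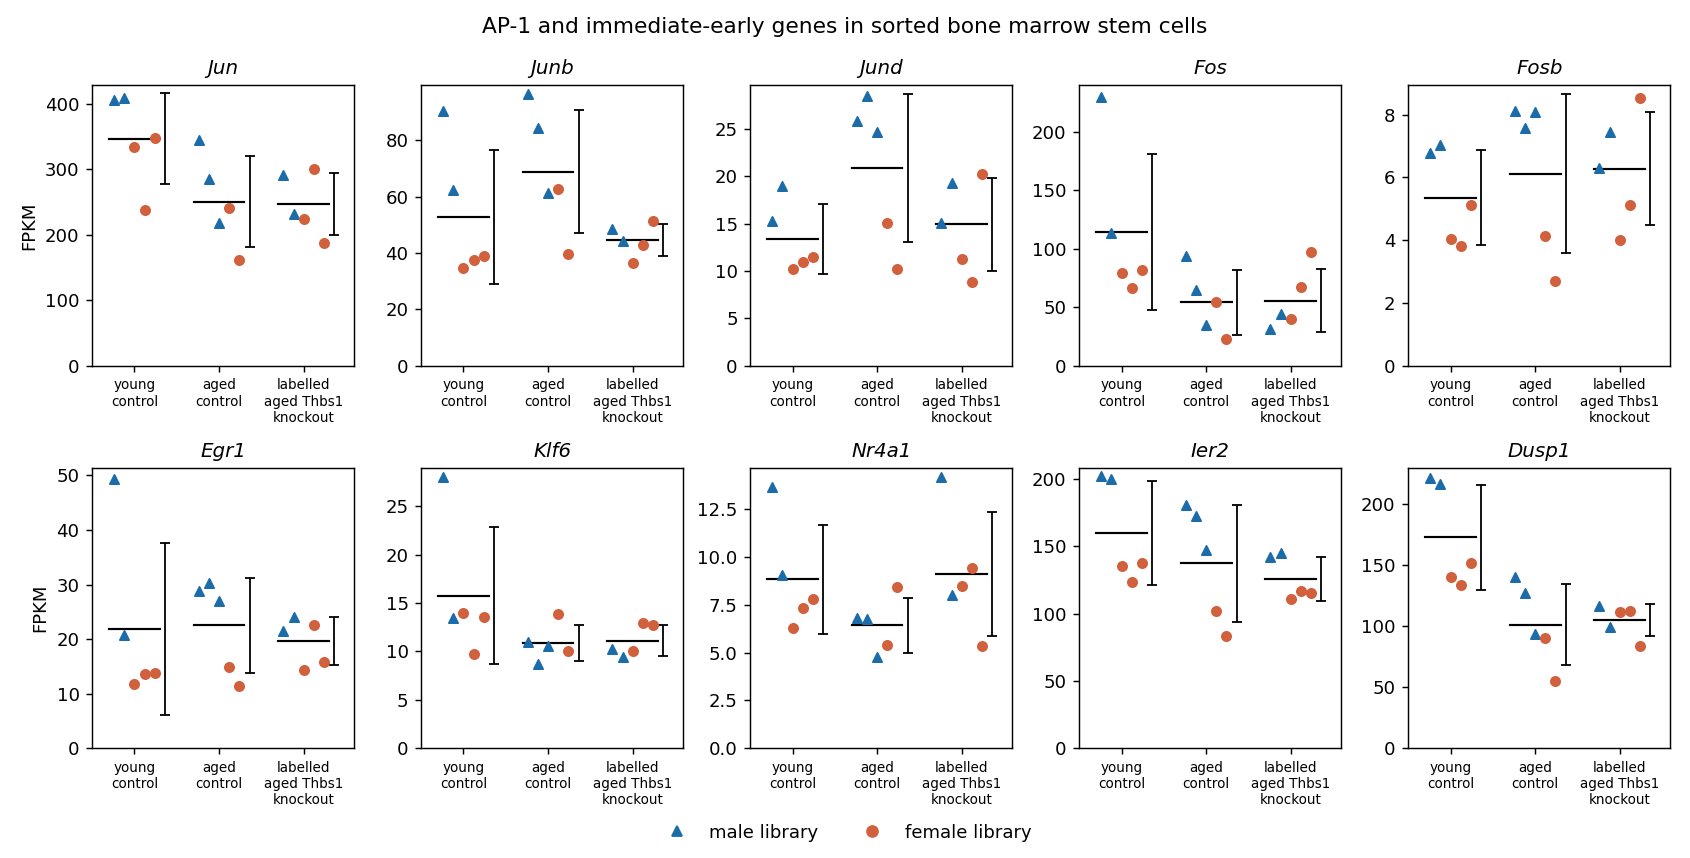
FPKM (vertical axes, starting at 0) of the 10 members in the 15 libraries by group, with triangles for libraries named male and circles for female; horizontal lines are group means and bars 1 SD (n = 5). Young controls hold the highest Fos (229.5), Egr1 (49.3), Klf6 (28.0), Dusp1 (222) and Ier2 (202) values, and in every group the male Ier2 values lie above the female ones.

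With age, Dusp1 fell and no other member passed the test (adjusted p under 0.05 from limma, Benjamini-Hochberg over 11345 genes, as for every adjusted p here). Dusp1 averaged 173 ± 42.8 FPKM in young controls and 101.5 ± 33.5 in aged controls (SD, n = 5 each), a log2 change of -0.80 (SE 0.21, 95% interval -1.25 to -0.35, adjusted p = 0.0397), or 1.74-fold lower on the log2(FPKM + 1) scale. Across the 11345 genes tested, 4.42% were called in either direction (3.18% higher and 1.23% lower), and 1 call among 10 members says nothing of the members as a group. The call was lost without aged control 3, 4 or 5 or young control 1, 2, 3 or 5 (adjusted p between 0.0233 and 0.123 over all omissions), with no filter on low values (adjusted p = 0.0762), and with groups formed by GEO's descriptions (change -0.26, adjusted p = 0.979). With sex as a covariate the change was -0.90 (adjusted p = 0.00338).

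Fos had the largest difference with age, and it did not pass. Its means were 114 ± 66.8 FPKM in young and 54.1 ± 27.5 in aged controls, a log2 difference of -1.06 (SE 0.38, 95% interval -1.85 to -0.28, adjusted p = 0.123). Jun differed by -0.49 (347 ± 69.2 against 249.95 ± 69.5, adjusted p = 0.189) and Klf6 by -0.43 (15.8 ± 7.06 against 10.8 ± 1.87, adjusted p = 0.249). The values for Nr4a1 (-0.38) and Ier2 (-0.25) also lay below 0, whereas Jund (0.55, adjusted p = 0.257), Junb (0.42, adjusted p = 0.344), Egr1 (0.16) and Fosb (0.11) lay above it. The members thus lay on both sides of 0, 6 below and 4 above, with a median of -0.32 against -0.02 over all genes tested. At an unadjusted p under 0.05 there were 4 members, beside 20% of all genes.

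The change of Dusp1 and Fos with age was also taken within the sexes, a choice made after the values were seen. In the 2 young and 3 aged male libraries, Fos differed by -1.42 (adjusted p = 0.0277), Dusp1 by -0.88 (adjusted p = 0.0130) and Klf6 by -0.89 (adjusted p = 0.0455), where 9.63% of all genes were called. These calls rested on young control 1: without it, which leaves 1 young male library assumed to vary like the others, Fos differed by -0.91 (adjusted p = 0.438), Dusp1 by -0.86 (adjusted p = 0.150) and Klf6 by -0.39 (adjusted p = 0.523), beside 1.43% of all genes called. In the 3 young and 2 aged female libraries the differences were -1.08 for Fos (adjusted p = 0.628), -0.99 for Dusp1 (adjusted p = 0.190) and -0.06 for Klf6, none of which passed, beside 0.238% of all genes. Whether the sexes differ in their change with age was not tested.

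Between labelled knockout and aged control libraries, no member passed the test, where 1.55% of all genes were called (0.361% higher and 1.19% lower). Junb had the lowest p: it averaged 44.7 ± 5.66 FPKM in the labelled group and 68.9 ± 22.0 in aged controls, a log2 difference of -0.56 (SE 0.25, adjusted p = 0.340). It was the only member with an unadjusted p under 0.05, beside 12.9% of all genes, and voom on recovered reads called none either. Jund differed by -0.43 (95% interval -0.99 to 0.13) and Nr4a1 by 0.41 (-0.05 to 0.87). For Dusp1 the difference was 0.11 (-0.34 to 0.56) and for Fos 0.08 (-0.71 to 0.87). The aged controls enter both this comparison and the one with age, so the 2 sets of values are not independent.

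Against young controls, the lowest p among members belonged to Dusp1, and no member passed. It averaged 105 ± 13.2 FPKM against 173 ± 42.8, a log2 difference of -0.69 (SE 0.21, adjusted p = 0.107), and all 5 labelled libraries lay below all 5 young ones. Fos differed by -0.98 (55.8 ± 26.6 against 114 ± 66.8, adjusted p = 0.162) and Jun by -0.49 (247 ± 47.7 against 347 ± 69.2, adjusted p = 0.191). No member was called, where 1.63% of all genes were (1.01% higher and 0.617% lower); 3 had an unadjusted p under 0.05, beside 21.2% of genes, and voom called none. With sex as a covariate, Dusp1 was called (-0.69, adjusted p = 0.0316), as it was without aged control 5, which changes only the estimate of spread (adjusted p = 0.0461). With groups formed by GEO's descriptions, Ier2 was called instead (-0.77, adjusted p = 0.0234). There, all young libraries were named male and all labelled knockout libraries female. That call thus cannot be told apart from the sex difference of Ier2 given below. In the 2 young and 2 labelled male libraries, Fos differed by -2.10 (adjusted p = 0.0144) and Dusp1 by -1.02 (adjusted p = 0.0187), beside 7.71% of all genes called. Without young control 1, which leaves 1 young male library, these were -1.59 and -1.002. In the 3 and 3 female libraries they were -0.24 (adjusted p = 0.795) and -0.47 (adjusted p = 0.620), beside 0.097% of all genes called.

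**Figure D2:**
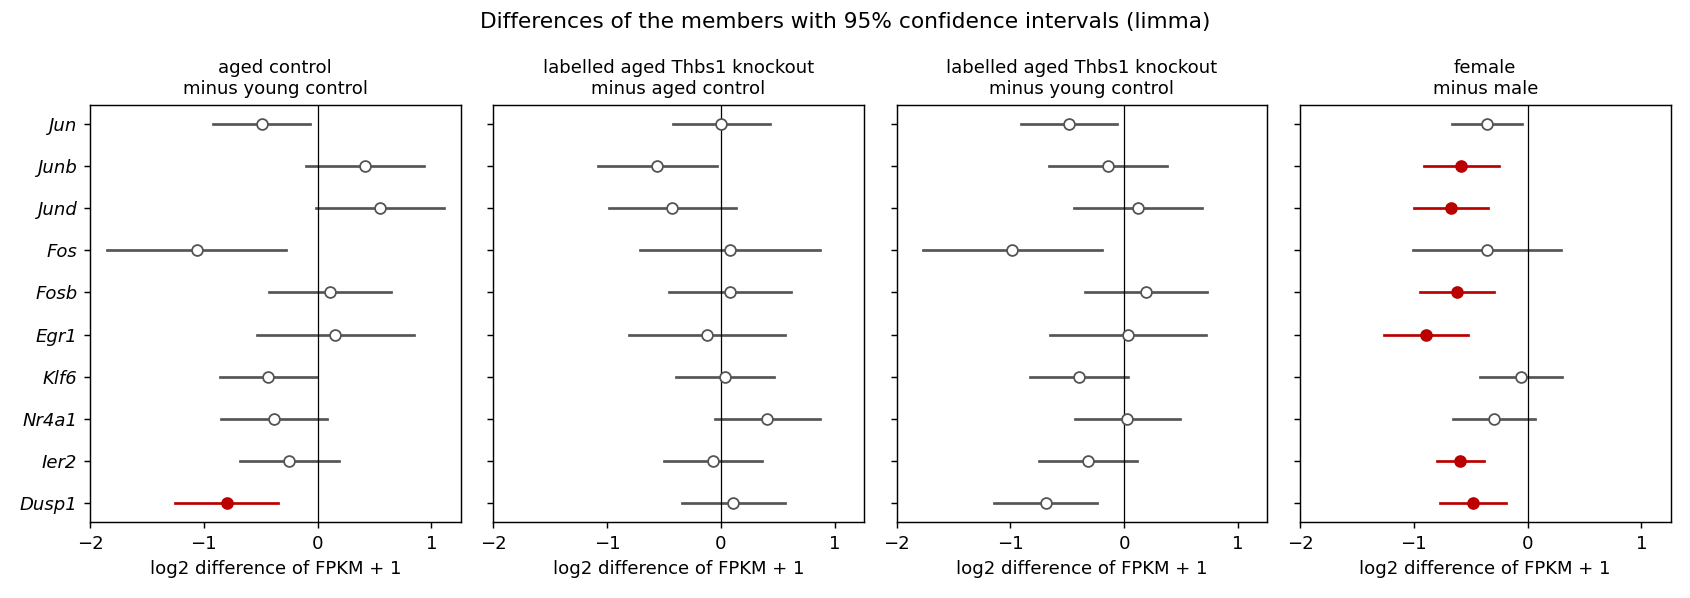
Log2 difference of FPKM + 1 (points, horizontal axis) with 95% confidence intervals (lines) for the 10 members in 4 comparisons, from limma; filled red points passed the adjusted test. Dusp1 is the only filled point among the comparisons of groups, and 6 members are filled for female minus male, all below 0.

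Female libraries held less of most members than male libraries. In a fit with group and sex, 6 of 10 members were lower in the 8 female libraries than in the 7 male ones, none was higher, and all 10 estimates lay below 0 (median -0.53, against 0.02 over all genes tested). Over all genes, 3.27% were called lower and 9.67% higher (371 and 1097 genes, or 567 and 894 after quantile normalization). Sex cannot be told apart from library order: in each group the male libraries carry the lower replicate numbers, and the running numbers in the library names are 13 to 20 for male and 22 to 30 for female libraries. By GEO's descriptions, all young libraries were named male and all labelled knockout libraries female, so sex there also went with age and label. The comparison of sexes was not run with those groups. The share of reads in mitochondrial genes was also higher in male libraries, with a median of 0.557% (lowest 0.395%, highest 1.64%) beside 0.363% for the female libraries (lowest 0.241%, highest 0.73%). Without the 2 libraries rich in rRNA-like reads, rRNA-like genes took between 0.257% and 0.408% of reads where the name was male and between 0.172% and 0.285% where it was female. The part of these shares in the members' values was not tested.

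Ier2 separated the sexes fully. Its lowest, median and highest values were 142, 173 and 202 FPKM in male libraries and 83.0, 116 and 137 in female libraries, a log2 change of -0.59 (SE 0.10, adjusted p = 0.00397). Egr1 had the largest change: 20.7, 26.9 and 49.3 FPKM in male and 11.5, 14.1 and 22.6 in female libraries, or -0.89 (SE 0.17, adjusted p = 0.00738), with 7 of 8 female libraries below the lowest male one. Both regulators kept the call whichever single library was left out.

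Among AP-1 subunits, Jund, Fosb and Junb were lower in female libraries, and Jun and Fos did not pass. Jund lay at 15.04, 19.3 and 28.4 FPKM (lowest, median, highest) in male and 8.89, 11.1 and 20.2 in female libraries, a change of -0.67 (SE 0.16, adjusted p = 0.0148). For Fosb the values were 6.31, 7.46 and 8.12 against 2.71, 4.09 and 8.54, a change of -0.62 (SE 0.15, adjusted p = 0.0193). Labelled aged Thbs1 knockout 5 held the highest female Fosb (8.54) and Jund (20.2), and aged control 4 the highest female Junb (62.9). Junb changed by -0.58 (44.1, 62.4 and 96.3 FPKM against 34.9, 39.3 and 62.9, SE 0.16, adjusted p = 0.0246). For Junb and for Jund, 6 of 8 female libraries lay below the lowest male one. Without aged control 5, the female library with the lowest Fos, Fosb, Jun, Egr1, Ier2 and Dusp1 values, 3 members remained called (Egr1, Ier2 and Jund), and the call of Junb was also lost without young control 2.

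Dusp1 was lower in female libraries too, by -0.48 (94.1, 127 and 222 FPKM against 55.3, 112 and 152, SE 0.14, adjusted p = 0.0343). That call was lost without aged control 1, 2, 4 or 5 or young control 2 or 3, and with quantile normalization (adjusted p = 0.0925). With no filter on low values, the sex calls of Dusp1 (adjusted p = 0.0654) and Junb (adjusted p = 0.0510) were lost, and without both libraries rich in rRNA-like reads all 6 members kept theirs, at -0.54 (Dusp1) to -0.95 (Egr1). Jun differed by -0.36 (adjusted p = 0.1099), Nr4a1 by -0.30 (adjusted p = 0.249), Fos by -0.35 (adjusted p = 0.447) and Klf6 by -0.06 (adjusted p = 0.842). The ratio of the female to the male mean was nearer to 1 in the labelled knockout group for most members. For Ier2 it was 0.656 in young controls, 0.555 in aged controls and 0.796 in the labelled group, for Junb 0.485, 0.636 and 0.943, and for Dusp1 0.648, 0.605 and 0.953. Fos stood at 0.442, 0.596 and 1.81. Whether the sex difference itself differs between groups was not tested. Summed over the 10 members, male libraries held 629.9 to 1262 FPKM (median 817) and female libraries 405 to 809.9 (median 624.5).

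**Figure D3:**
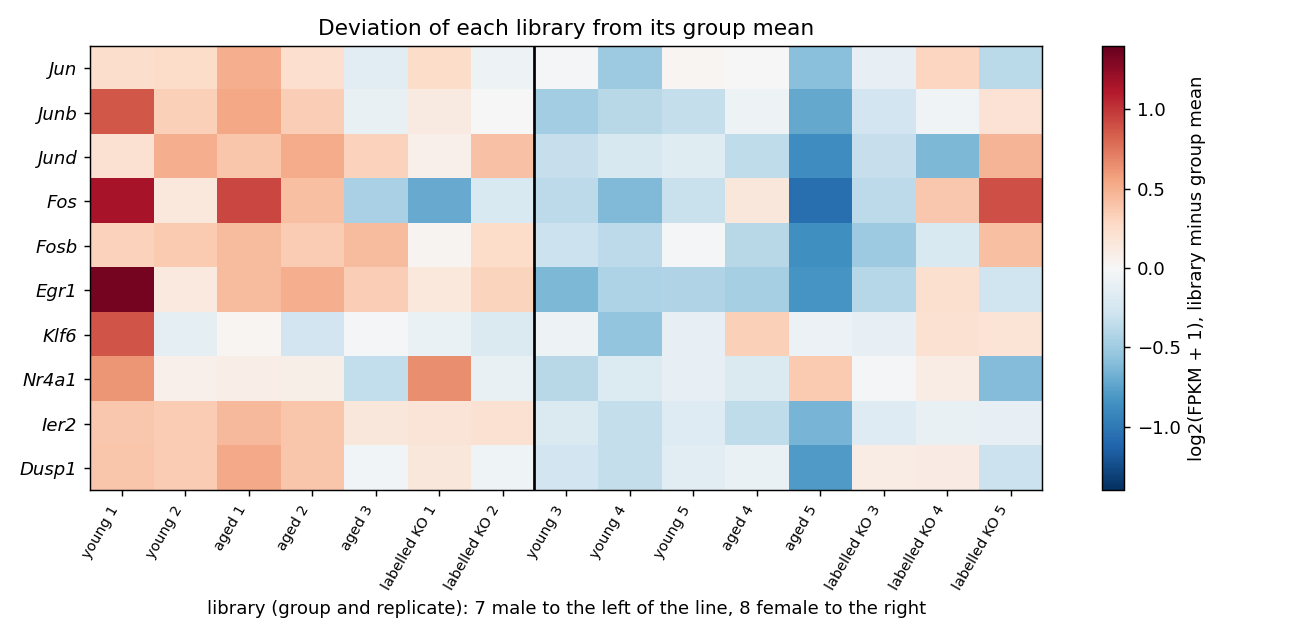
Deviation of each library (columns) from the mean of its group in log2(FPKM + 1), for the 10 members (rows), red above and blue below; male libraries stand left of the line and female right of it. Most red cells are male, aged control 5 is the bluest column, and Klf6 shows the least of the left and right pattern.

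Within groups, most members were high in the same libraries. Over the 45 pairs of members, the Pearson correlation of deviations from the group means ran from -0.12 (Jund with Nr4a1) to 0.93 (Fosb with Jund), with a median of 0.61, and 29 pairs lay above 0.5. Jun and Dusp1 correlated at 0.90 and Ier2 and Dusp1 at 0.89. These are descriptions over 15 libraries that share the sex pattern just given. Pairs among other genes were not taken, so how common such correlations are over all genes is not known.

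Among 9853 other genes, the one most like Fos over the 15 libraries was Zfp36, which encodes tristetraprolin, an RNA-binding protein that hastens the decay of AU-rich messages and is itself an immediate-early gene. Its Pearson r with Fos was 0.93 (Spearman 0.91), 0.93 within groups and 0.88 without the 2 libraries farthest from the median of Fos. The next were the small nucleolar RNA gene Snora31 (0.84), Pcf11 (0.81), whose product acts in transcription termination, Rhoh (0.79) and Zfp326 (0.78). Among the 5 genes most like Dusp1 were Fam167a at 0.84 (Spearman 0.80), 0.69 within groups and 0.82 without the 2 libraries farthest from the median of Dusp1, Dennd1c (0.78) and the histone gene H4c14 (0.78).

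**Figure D4:**
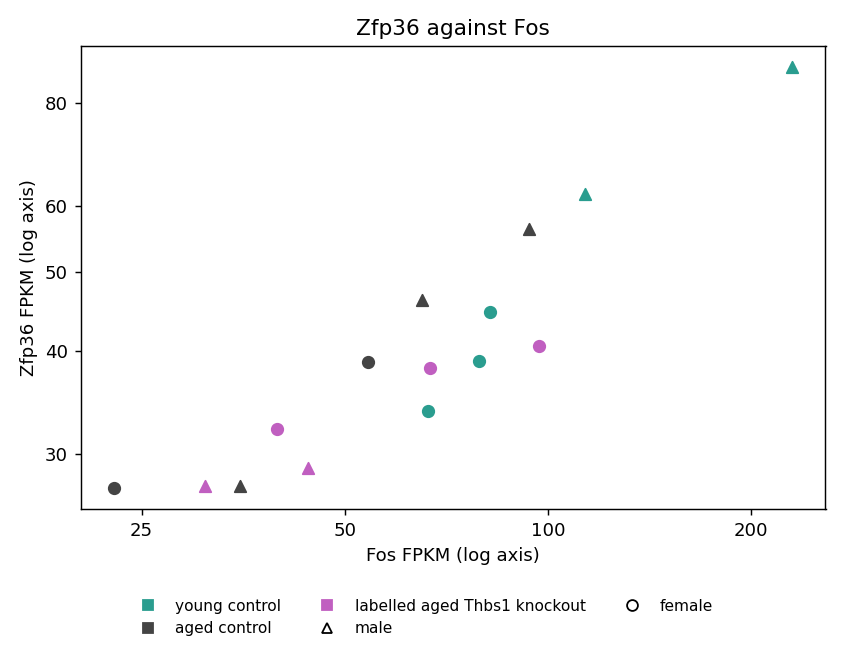
Zfp36 against Fos, in FPKM on log axes, for 15 libraries colored by group with triangles for male and circles for female. Libraries with more Fos hold more Zfp36 in all 3 groups (r = 0.93).

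Other genes of the pathway were taken from lists by their role, and their counts with age stand against 3.18% of all genes called higher and 1.23% lower. Of 11 tested AP-1 relatives and bZIP partners, only Batf2, which encodes a bZIP protein that can inhibit AP-1, rose with age (7.46 ± 1.08 to 14.2 ± 3.12 FPKM, log2 change 0.83, adjusted p = 0.00272), and 10 did not pass. Of 9 other immediate-early transcription factors, Cebpd (0.776 ± 0.146 to 4.45 ± 1.70 FPKM, 1.55, adjusted p = 2.91e-04) and Cebpb (1.03, adjusted p = 0.0296), both C/EBP factors of myeloid and inflammatory programs, rose and 7 did not pass. The call of Cebpb was lost without young control 1, 3, 4 or 5 or aged control 1, 2, 3 or 4 (adjusted p up to 0.0917). Cebpd was the only gene of these lists called between the labelled knockout libraries and aged controls, where it was lower (-1.08, adjusted p = 0.0169), a call lost without aged control 1 or 2 (adjusted p up to 0.0654).

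Of 21 other feedback and effector genes, 4 rose with age, none fell and 17 did not pass. Gadd45g, a stress sensor that activates MAP kinase kinase kinases, rose from 10.05 ± 1.41 to 48.6 ± 9.37 FPKM (2.16, adjusted p = 1.44e-04). Sgk1, a serum-induced kinase gene, rose by 1.21 (adjusted p = 0.00242), Trib1 by 0.79 (adjusted p = 0.0335) and Ier3 by 0.75 (adjusted p = 0.00733). The call of Trib1 was lost without young control 1, 3 or 5 or aged control 1, 2, 3 or 4 (adjusted p up to 0.109). Gadd45g was also higher in the labelled knockout libraries than in young controls (28.9 ± 23.1 FPKM, 1.19, adjusted p = 0.0437), a call lost without any 1 of the 5 young libraries, aged control 1, 2 or 3 or labelled aged Thbs1 knockout 2 (adjusted p up to 0.124). The median of this list was -0.09, against -0.02 over all genes tested. None of 15 kinases and upstream factors was called between groups.

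Heat shock genes are also known to respond to handling and dissociation, and 16 were examined. Between groups none of the 16 was called in any comparison. Their summed FPKM was 2251 to 2502 (young), 2155 to 2469 (aged) and 2133 to 3024 (labelled knockout), and 2155 to 2502 in male against 2133 to 3024 in female libraries. Between the sexes 2 of 16 were lower and 3 higher in female libraries, where 3.27% of all genes were lower and 9.67% higher. The cytosolic chaperone genes Hsp90aa1 (-0.77, adjusted p = 0.0197) and Dnajb1 (-0.37, adjusted p = 0.0305) were lower in female libraries, as the 6 members were; the first call was lost without aged control 5 or labelled aged Thbs1 knockout 2, and the other in 8 of 15 omissions of a single library. The mitochondrial chaperonin gene Hspd1 (0.97, adjusted p = 0.00317), the endoplasmic reticulum chaperone gene Hspa5 (0.74, adjusted p = 0.00729) and Dnaja1 (0.43, adjusted p = 0.0475, lost in 10 of 15 omissions) were higher. The inducible genes Hspa1a (-0.72, adjusted p = 0.0914) and Hspa1b (-0.61, adjusted p = 0.178), near-identical copies whose reads may be shared, did not pass. The part of handling in the members' values was not tested.

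Of 15 tested kinases and upstream transcription factors, 4 were higher in female libraries and none lower, where 9.67% of all genes were higher and 3.27% lower. The kinase genes among them included Mapk9 (0.71, adjusted p = 0.0178) and Map2k4 (0.50, adjusted p = 0.0343) of the JNK branch, and Map2k1 (0.28, adjusted p = 0.0364) of the ERK branch. Leaving out a single library ended the call of Mapk9 in 2 of 15 cases (aged control 4 and labelled aged Thbs1 knockout 2), of Map2k4 in 9 and of Map2k1 in 11. Dusp2, another MAP kinase phosphatase gene, was lower (-0.52, adjusted p = 0.00317), the only 1 of 21 feedback and effector genes called there.

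Markers of other cell types were read beside the members. Between the sexes, none of the 9 stem cell, 6 erythroid or 5 myeloid markers tested was called. Nor was any of the 2 macrophage, 2 B cell or 2 T and NK cell markers tested. Fcer1a of 2 tested mast cell and basophil markers and Col1a2 and Emcn of 4 tested endothelial and stromal markers were higher in female libraries. The call of Fcer1a was lost in 9 of 15 omissions. The summed level of the 8 endothelial and stromal markers was 12.7 to 16.1 FPKM in male and 15.2 to 21.3 in female libraries. These ranges overlapped, as did those of other sums. Erythroid markers came to 76.6 to 254 FPKM in male and 52.6 to 390.4 in female libraries, B cell markers to 36.2 to 65.5 and 30.8 to 57.9, and T and NK cell markers to 53.8 to 123 and 29.1 to 134. With age, Ly6a and Procr rose and Cd34 fell among 9 stem cell markers, and the summed neutrophil and myeloid progenitor markers were 91.8 to 143 FPKM (young), 195 to 381 (aged) and 160 to 384 (labelled knockout), with Prtn3 higher than in young controls in both (1.49, adjusted p = 4.33e-04, and 0.91, adjusted p = 0.0497, the latter lost in 12 of 15 omissions). Klrb1c, called among 2 T and NK cell markers, was higher with age as well. Between labelled knockout and aged control libraries, Klrb1c (-1.38, adjusted p = 0.0207) and Ly6a (-1.12, adjusted p = 0.00432) were lower, the former a call lost without aged control 1 or 2 or labelled aged Thbs1 knockout 2. Against young controls, Cd34 (-0.88, adjusted p = 0.0154, lost without young control 5) and the globin gene Hbb-bt (-1.14, adjusted p = 0.0424, lost in 9 of 15 omissions) were lower. The part of these cells in the change of Dusp1 was not tested.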

How the data were processed

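Bulk RNA-seq of sorted HSCs was analysed in 15 libraries. The authors deposited 1 table of FPKM values; per the submitters' processing notes, FastQC 0.11.5, STAR and edgeR were used with build GRCm38 (mm10), and how reads were counted is not given in the sources used here. Columns were assigned to groups by their titles. Sex was read from the library names.

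Values were taken as log2(FPKM + 1). Genes averaging at least 1 FPKM were tested (11345, all 10 members included). Groups were compared in limma 3.58.1 (R 4.3.3) with an intensity-dependent prior variance, all 15 libraries in 1 fit, two-sided; the comparison of sexes had group and sex as terms. Benjamini-Hochberg adjustment covered all genes tested, and an adjusted p under 0.05 was called. A log2 change on this scale understates changes of low genes. The fit was tested on simulated data. Named genes were the members, at most 4 called genes per list and comparison, and the 5 most like Fos and Dusp1; some genes this rule names are not reported here. The members and lists were chosen with earlier results of these data known. Alternatives were a pseudocount of 0.1, no filter, quantile normalization, voom on recovered reads, a replicate block, a sex covariate, leaving out libraries, and grouping by GEO's descriptions.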

Additional observations from a re-analysis of the deposited data

Results flagged for a closer look

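In 3 of 30 sets (10 members in 3 groups of 5 libraries), 1 library stood apart from the other 4 by Dixon's criterion, and chance alone would mark about 5% of sets. All 3 concerned young control 1, a male library, in which Fos reached 229.5 FPKM, Egr1 49.29 FPKM and Klf6 28.02 FPKM, each far above the next young control.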

How the results depend on the processing

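Leaving out each library in turn gave 311 to 943 genes called for age (501 with all libraries), 95 to 229 for the labelled knockout against aged controls (176), 98 to 676 for it against young controls (185) and 529 to 2872 between the sexes (1468). Over the same omissions, members called ranged from 0 to 1 for age, 0 to 1 for the labelled knockout against young controls, and 3 to 6 for sex, and stayed at 0 for the labelled knockout against aged controls. Other settings that moved a count were these. Groups formed by GEO's descriptions gave 0 genes for age (0 members), 0 for the labelled knockout against aged controls and 15 against young controls (1 member, Ier2). In those groups all young libraries were named male and all labelled knockout libraries female. Male libraries alone, an alternative chosen after seeing the data like female alone, gave 1093 genes (3 members) for age and 875 (2 members) for the labelled knockout against young controls; without young control 1, also chosen after seeing the data, these were 162 (0 members) and 11 (0 members). Female libraries alone gave 27 (0 members), 10 for the labelled knockout against aged controls and 11 against young controls. Sex as a covariate gave 429 genes for the labelled knockout against young controls (1 member, Dusp1). Without both libraries with most rRNA-like reads, 1030 genes were called for age and 2327 for sex. With no filter on low values, 0 members passed for age and 860 genes for sex. The replicate numbers were tested as pairs: deviations of same-numbered libraries correlated at -0.46 to 0.53 (median -0.04), and 6 of 15 pairs lay above 0.1. Pairs of other numbers had a median of 0.008, and 26 of 60 lay above 0.1, so the numbers were not taken to pair libraries. Of the 15 libraries, 6 correlated best with their own number, and how many would do so by chance was not tested. With the replicate block, Dusp1 kept its call for age (-0.80, adjusted p = 0.0114). For sex the replicate block left 1 gene and 0 members, since both sexes occur at only 1 of the 5 numbers and the block takes up the rest.

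No called member changed sign under any setting; the sign changes below concern estimates that did not pass the test either way. With groups by GEO's descriptions, Fosb -0.45, Junb -0.92, Jund -0.72, Egr1 -0.84 and Nr4a1 0.10 for age, Fos -0.17, Fosb -0.14, Jun -0.38, Junb 0.17, Dusp1 -0.52 and Nr4a1 -0.19 for labelled knockout against aged, and Fosb -0.60, Jund -0.77, Egr1 -0.91 and Nr4a1 -0.088 for labelled knockout against young. The last comparison there set only female libraries against only male ones. In male libraries alone, Egr1 -0.15 for age, Fos -0.68, Fosb -0.18, Jun -0.10, Dusp1 -0.14 and Klf6 -0.023 for labelled knockout against aged, and Fosb -0.0073, Jund -0.0042, Egr1 -0.48 and Nr4a1 -0.0502 for labelled knockout against young. In male libraries without young control 1, Fos -0.68, Fosb -0.18, Jun -0.10, Dusp1 -0.14 and Klf6 -0.023 for labelled knockout against aged, and Fosb -0.032 and Jund -0.15 for labelled knockout against young. In female libraries alone, Fosb -0.28 for age, Jund 0.027, Egr1 0.37 and Ier2 0.31 for labelled knockout against aged, and Junb 0.22 for labelled knockout against young. With sex as a covariate, Fosb -0.014 and Egr1 -0.023 for age, and Egr1 0.057 and Ier2 0.048 for labelled knockout against aged. Without both libraries with most rRNA-like reads, Fos -0.15 and Fosb -0.14 for labelled knockout against aged, and Fosb -0.035 and Jund -0.17 for labelled knockout against young. With quantile normalization, Jun -0.013 for labelled knockout against aged. With the replicate block, Fos 0.11, Jun 0.11 and Nr4a1 0.17 for sex. Leaving out single libraries, sign changes lay within Egr1 -0.00045 to 0.49 and Fosb -0.0017 to 0.32 for age, Dusp1 -0.0897 to 0.24, Egr1 -0.33 to 0.0046, Fos -0.18 to 0.31, Fosb -0.13 to 0.21, Ier2 -0.23 to 0.044, Jun -0.14 to 0.13 and Klf6 -0.0302 to 0.12 for labelled knockout against aged, Egr1 -0.12 to 0.37, Junb -0.27 to 0.072 and Nr4a1 -0.14 to 0.18 for labelled knockout against young, and Klf6 -0.15 to 0.14 for sex. Voom was run on reads recovered from the FPKM steps; within 0.1 reads, 99.5% to 100% of values of genes of at most 250 nucleotides and 97.4% to 98.4% in longer genes of at most 500 were whole, and it called 1, 0, 0 and 6 members in the 4 comparisons. FPKM carries no depth of its own for longer genes, and 5 libraries a group limit what can be called: in simulated data on the 11345 genes, a log2 change of 1 was called in 83% of changed genes for age and 87% for sex. Those draws were normal and independent between genes, with no outlying library. The shares are averages over genes of differing spread, not the chance of a call for a given member.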
